A study of Mus musculus with 14 samples.

Results

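Padi4 and 7 genes of neutrophil granules and cytosol, S100a8, S100a9, Ngp, Camp, Ltf, Mpo and Elane, were followed in the olfactory epithelium of 14 mice taken at P5. They are 8 of the 51211 gene symbols in the tables, and all 8 were present in both experiments. Padi4 was picked because its values were low in the mice exposed to an odor, and the other genes were picked to follow the neutrophil content of the same tissue. Padi4 was thus chosen by its values in the odor experiment. The values of all 8 genes there are given as a description, without a p-value. The Kir2.1 experiment played no part in the choice, and the same genes were tested in it.

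In the odor experiment, 4 wild-type mice were exposed to 2-phenylethylamine (PEA), an amine odorant found in predator urine, from P0 to P5 and were compared with 4 wild-type mice that were not exposed. The pups were exposed in the home cage with their mother, and whether the mice of a group shared a litter is not given in the sources used here. The labels name C57BL/6 as the strain of all mice, whereas the methods of the study describe CD-1 pups for PEA exposure. In the genetic experiment, 3 mice carrying OMP-IRES-tTA and tetO-Kir2.1-IRES-tauLacZ were compared with 3 control mice carrying OMP-IRES-tTA alone. The transactivator tTA is placed at the Omp locus, so that the potassium channel Kir2.1 is made in mature olfactory sensory neurons (OSNs). The study states that Kir2.1 also silences vomeronasal neurons. Whether blood cells made Kir2.1 was not examined here. The labels call these mice Kir2.1-Off, a name otherwise used for mice later fed doxycycline. Here the name Kir2.1 mice is used. All values are normalized counts of the whole olfactory epithelium, made separately for each experiment.

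Neutrophils are short-lived white blood cells that are made in bone marrow and carry antimicrobial proteins in granules. Primary granules, filled first, hold myeloperoxidase (Mpo) and neutrophil elastase (Elane). Secondary granules hold lactoferrin (Ltf), the cathelicidin precursor (Camp) and neutrophilic granule protein (Ngp). S100a8 and S100a9 pair to form calprotectin, an abundant protein of the neutrophil cytosol. Padi4 encodes peptidylarginine deiminase 4, which converts arginines of histones to citrulline and takes part in the release of neutrophil extracellular traps. Several of these genes are not restricted to neutrophils, since lactoferrin is also secreted by nasal glands and calprotectin is also made by squamous epithelium.

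Padi4 (ENSMUSG00000025330) lies on the minus strand of GRCm38 at chr4:140745865-140774236 and overlaps no other annotated gene. S100a8 and S100a9 lie close together on chromosome 3, and Ngp, Camp and Ltf lie on chromosome 9. Mpo lies on chromosome 11, where it overlaps the predicted gene Gm11505, and Elane lies on chromosome 10. The DNA just upstream of Padi4 and of the S100 pair is shown because Padi4 was the member at or near 0 in the exposed mice, while S100a8 and S100a9 encode the partners of calprotectin. The sequences are from RefSeq on GRCm38.p6, are written along the gene's strand and end where the first annotated exon begins. Their positions are chr4:140774237-140774453 for Padi4 (minus strand), chr3:90668821-90668977 for S100a8 (plus strand) and chr3:90695722-90695971 for S100a9 (minus strand). Capitals mark matches, on either strand, to AGGAAG, a core bound by ETS factors such as PU.1, or to TTNNGCAA, a form of the C/EBP site.
Padi4: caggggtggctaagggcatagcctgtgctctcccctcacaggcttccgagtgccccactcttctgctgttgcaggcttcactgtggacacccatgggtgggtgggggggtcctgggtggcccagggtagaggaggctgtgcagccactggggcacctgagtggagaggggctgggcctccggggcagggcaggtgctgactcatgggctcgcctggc
S100a8: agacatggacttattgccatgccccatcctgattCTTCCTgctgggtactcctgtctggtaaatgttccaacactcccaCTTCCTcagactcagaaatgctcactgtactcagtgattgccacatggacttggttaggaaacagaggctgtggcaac
S100a9: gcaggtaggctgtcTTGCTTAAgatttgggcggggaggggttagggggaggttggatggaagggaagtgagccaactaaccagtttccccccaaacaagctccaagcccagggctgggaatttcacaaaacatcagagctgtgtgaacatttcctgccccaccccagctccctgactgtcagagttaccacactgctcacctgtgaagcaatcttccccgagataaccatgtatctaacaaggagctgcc
Within the 250 bases before the RefSeq start, TATAAA began 31 bases upstream of Padi4 and 30 bases upstream of S100a8, both on the gene's strand and both outside the letters shown. TATAAA was not found in the other 6 windows. It occurred on either strand in 12.4% of the 32851 RefSeq promoter windows of the same length. AGGAAG was found in the windows of Padi4, S100a8, Camp, Ltf, Mpo and Elane, with 3 matches in that of Mpo, and in 29.5% of all windows. TTNNGCAA was found in the windows of S100a9, Ngp and Ltf and in 9.56% of all windows. A match of letters is a description and not evidence of a bound site.

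Sequencing depth set how small a value could be read. In each library, low values clustered at a step close to 1 normalized count, which is taken here as the worth of 1 read. On that scale the libraries held about 9767827 to 15082264 reads in the PEA experiment and 32499984 to 35397182 in the Kir2.1 experiment. The depth is approximate, since reads were shared between transcripts when they were assigned. The libraries were also made differently, from RNA depleted of ribosomal RNA in the PEA experiment and from poly-A RNA in the Kir2.1 experiment, so that levels cannot be set against each other across the experiments.

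Whether PEA exposure changed the level of Padi4 or of the neutrophil genes was described first. Padi4 was present at a low but even level in every control mouse and at or near 0 in every exposed mouse. Its normalized counts were 33.2, 32.5, 27.9 and 29.4 in control mice 1 to 4. They were 0.743, 1.40, 0 and 0.513 in exposed mice 1 to 4. The means were 30.7 ± 2.52 and 0.663 ± 0.579 (SD, n = 4 each), and the groups lay far apart, beside 9.32% of all genes tested whose groups did not overlap in either direction. The difference was -4.32 on the log2 scale (SE 0.43) after 1 was added to each value, which understates a change toward 0. In reads summed over the mice of a group, the control mice held about 134 and the exposed mice about 3, a ratio of 41.7. The ratio rests on very few reads in the exposed mice. As Padi4 was chosen by this contrast, it is a description only.

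Of the 5 members with a mean of at least 10, 1, Padi4, had an adjusted value past the threshold of 0.05, beside 0.179% of all genes tested (31 genes, of which 25 were higher and 6 were lower in exposed mice). Because Padi4 was chosen by this contrast, that outcome was fixed by the choice, and nothing is read from it.

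**Figure D1:**
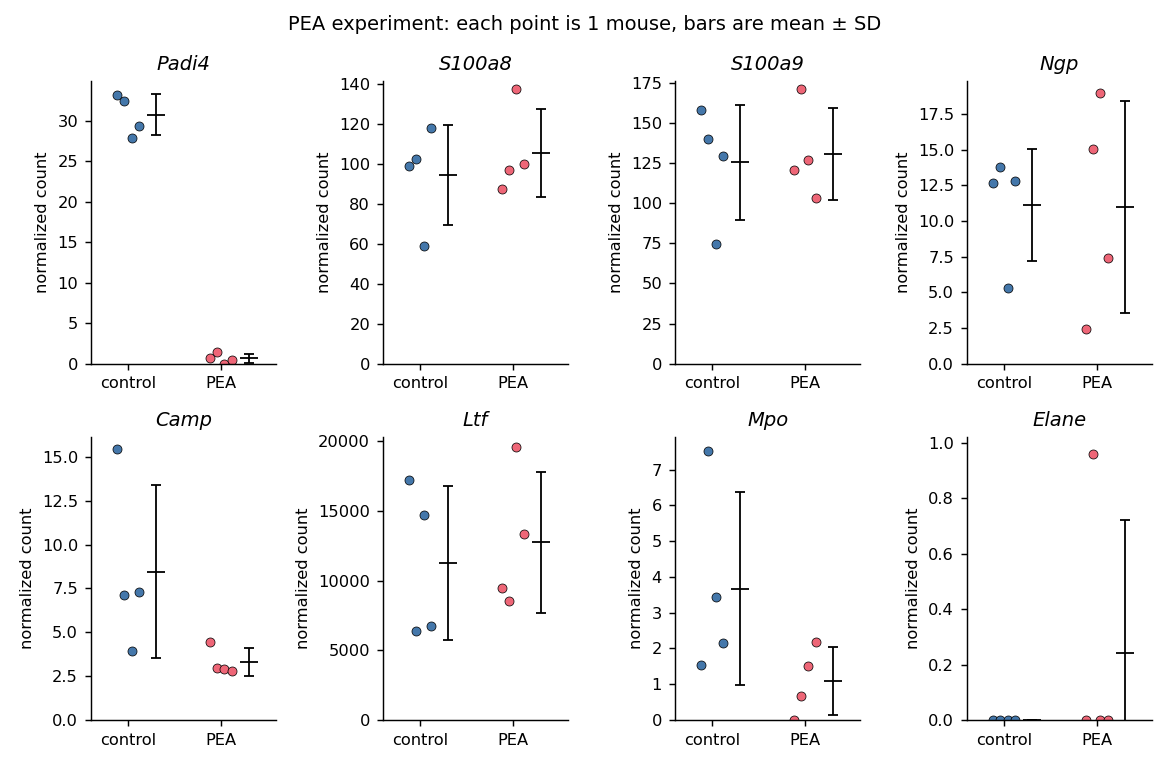
Normalized counts of the 8 genes in the PEA experiment, with 1 panel per gene, 1 point per mouse and the mean ± SD of 4 mice beside each group. The 4 exposed mice lie between 0 and 1.40 for Padi4, below all 4 control mice, and the groups overlap in the other 7 panels.

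The calprotectin genes gave a different picture. S100a8 read 98.9, 102, 58.8 and 118 in the control mice. It read 87.5, 97.0, 137 and 99.7 in the exposed mice. The exposed mice lay within or just above the range of the controls, and the log2 difference was 0.18 (SE 0.23). S100a9, its partner, read 158, 140, 74.8 and 129 in the control mice. It read 121, 171, 127 and 103 in the exposed mice, a log2 difference of 0.09 (SE 0.24). Control mouse 3 was the lowest of all 8 mice for both genes.

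The secondary granule genes were spread more widely. Ngp read 12.7, 13.8, 5.30 and 12.8 in the control mice. It read 2.44, 15.1, 19.0 and 7.44 in the exposed mice, so that the exposed mice held both the lowest and the highest value (log2 difference -0.23, SE 0.58). Camp read 15.5, 7.11, 3.93 and 7.29 in the control mice. It read 4.46, 2.99, 2.93 and 2.78 in the exposed mice. The groups overlapped for Camp only through control mouse 3 and exposed mouse 1, and the difference of the log2 means was -1.02. Camp was below the mean of 10 needed for the fit, and at about 37 and 13 reads per group its values rest on few reads.

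Ltf was the most abundant member by far. It read 17223, 6373, 14723 and 6735 in the control mice. It read 9486, 8509, 19595 and 13342 in the exposed mice. Mice of both groups were found at both ends of that range, and the log2 difference was 0.24 (SE 0.36).

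The primary granule genes were close to the limit of detection. Mpo read 1.55, 7.53, 3.45 and 2.15 in the control mice and 0, 0.680, 1.51 and 2.18 in the exposed mice. Elane was listed at 0 in all 4 control mice and in 3 exposed mice, and at 0.960, about 1 read, in exposed mouse 2. No ratio is given for Elane, since both groups were at or under 3 reads. Neither gene entered the fit.

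Over the 4 granule and calprotectin genes that entered the fit, the median log2 difference was 0.13, beside -0.02 over all genes tested. In bulk tissue, fewer neutrophils and less RNA per neutrophil cannot be told apart.

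The chromosomal neighborhood of Padi4 holds the rest of its family. On one side lie Padi6, a deiminase of the egg, Rcc2, a regulator of chromosome condensation and cell migration, and Arhgef10l, a guanine nucleotide exchange factor. On the other side lie Padi3 and Padi1, deiminases of hair and skin, and Padi2, the most widely expressed member of the family. Of the 4 other Padi genes, 2 were abundant enough to be tested in the PEA experiment, and neither passed the threshold. Padi1 read 40.2 to 50.5 in control mice and 30.5 to 44.3 in exposed mice (log2 difference -0.23, SE 0.19, limma adjusted p = 0.621). Padi2 read 394 to 542 and 323 to 877 (0.12, SE 0.29, adjusted p = 0.882). Padi6, which ends 3.2 kb from Padi4, did not exceed 5.57 in any mouse of the experiment, and Padi3 did not exceed 4.79.

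Rcc2, 22.6 kb from Padi4, was the neighbor with the largest difference. It read 709, 776, 368 and 846 in the control mice and 1262, 1827, 1305 and 1601 in the exposed mice, which were all higher. The log2 difference was 1.20 (SE 0.24), and its adjusted p of 0.0866 by limma missed the threshold. Groups did not overlap in this direction for 5.46% of all genes tested. In the Kir2.1 experiment the log2 difference of Rcc2 was 0.05 (SE 0.11, adjusted p = 0.918).

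**Figure D2:**
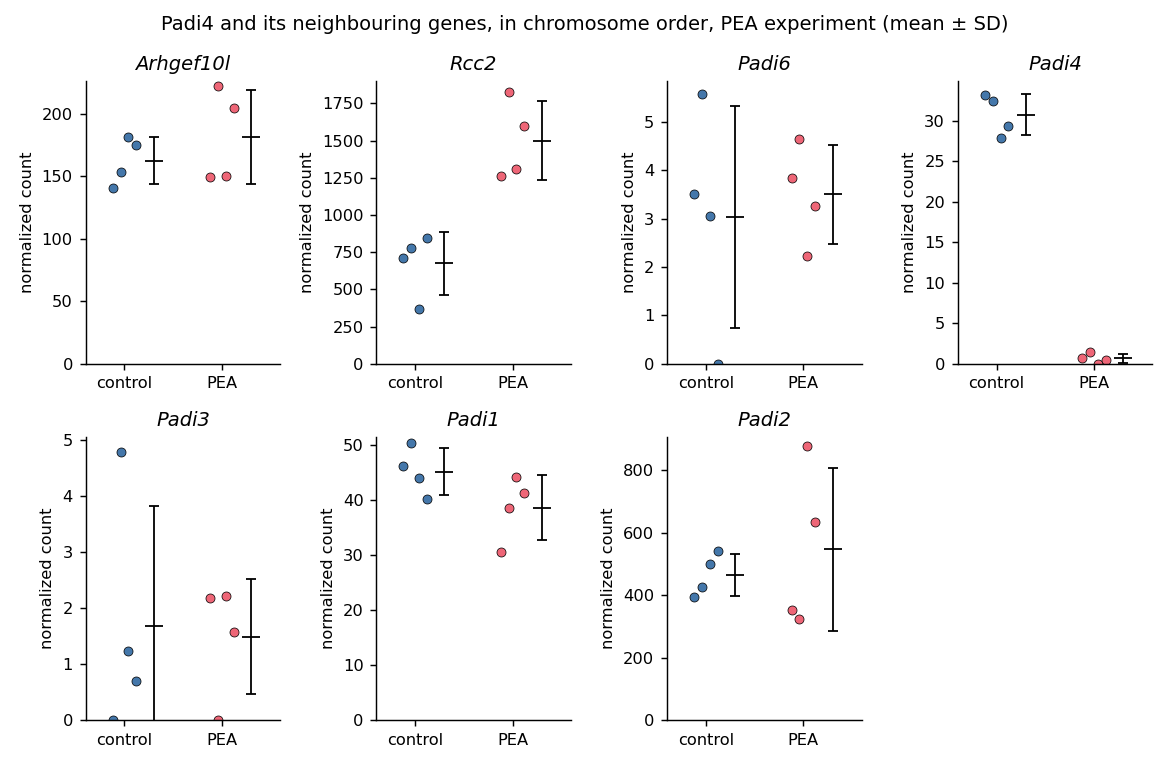
Normalized counts of Padi4 and of the 3 protein-coding genes on each side of it, in chromosome order, in the PEA experiment, with 1 point per mouse and the mean ± SD of 4 mice. Padi4 is lower in all 4 exposed mice and Rcc2 is higher in all 4, while the groups overlap for the other 5 genes.

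The Kir2.1 experiment then asked whether the same genes differed when OSNs expressed Kir2.1. Of the 8 genes, 6 had a mean of at least 10 and were tested, and none passed the adjusted threshold, beside 0.353% of all 19807 genes tested (70 genes). Of the same 6 genes, 1, Camp, had an unadjusted p under 0.05, beside 11.1% of all genes tested. Groups did not overlap for Camp (lower in Kir2.1 mice), Ngp (higher) and Elane (higher), the last not tested. Over all genes tested, groups did not overlap for 16.3%, with 7.26% higher and 9.04% lower in Kir2.1 mice.

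Padi4 was present in both groups of this experiment. It read 8.22, 15.6 and 6.93 in control mice and 21.6, 8.61 and 11.9 in Kir2.1 mice. The groups overlapped, and the log2 difference was 0.40 (SE 0.50, 95% interval -0.77 to 1.58, limma adjusted p = 0.847). An exact two-sided permutation test gave p = 0.5, where 3 mice against 3 cannot go below 0.1.

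Camp had the largest difference of the members tested. It read 29.5, 25.5 and 17.6 in control mice and 6.77, 9.35 and 7.16 in Kir2.1 mice. All 3 Kir2.1 mice were below all 3 control mice, with a log2 difference of -1.51 (SE 0.37, 95% interval -2.37 to -0.64). The adjusted p by limma was 0.195, with an unadjusted p of 0.00437, and the exact permutation p was 0.1, the smallest possible. Camp encodes the precursor of cathelicidin, an antimicrobial peptide.

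Ngp, a cystatin-like protein of the same granules, did not move with Camp. It read 8.40, 11.6 and 10.9 in control mice and 18.1, 15.2 and 12.4 in Kir2.1 mice. All 3 Kir2.1 mice were higher, with a log2 difference of 0.52 (SE 0.36, 95% interval -0.33 to 1.37, adjusted p = 0.687 by limma).

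The calprotectin genes overlapped between the groups. S100a8 read 396, 413 and 203 in control mice and 359, 396 and 291 in Kir2.1 mice (log2 difference 0.11, SE 0.28, 95% interval -0.55 to 0.76, limma adjusted p = 0.942). S100a9 read 345, 442 and 242 in control mice and 373, 462 and 326 in Kir2.1 mice (0.20, SE 0.24, 95% interval -0.35 to 0.75, adjusted p = 0.833). Control mouse 3 was the lowest of the 6 mice for both. Without it the log2 difference was -0.22 for S100a8 and -0.03 for S100a9.

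Ltf read 4672, 7949 and 2952 in control mice and 18675, 3302 and 2825 in Kir2.1 mice. The highest value, in Kir2.1 mouse 1, stood far above the other 5 mice. The log2 difference was 0.22 (SE 0.72, limma adjusted p = 0.953), and it was -0.65 without Kir2.1 mouse 1 and -0.13 without control mouse 3.

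The primary granule genes did not reach the mean needed for the fit. Mpo read 13.2, 1.63 and 15.6 in control mice and 3.24, 11.6 and 10.1 in Kir2.1 mice, and the groups overlapped (exact permutation p = 1). Elane read 0, 0.986 and 0.975 in control mice and 2.91, 4.17 and 7.10 in Kir2.1 mice. All 3 Kir2.1 mice were higher for Elane, at about 14 reads against 2, a ratio of 7.10 with an exact 95% interval of 1.63 to 64.3 for counting error only (exact permutation p = 0.1, the smallest possible).

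**Figure D3:**
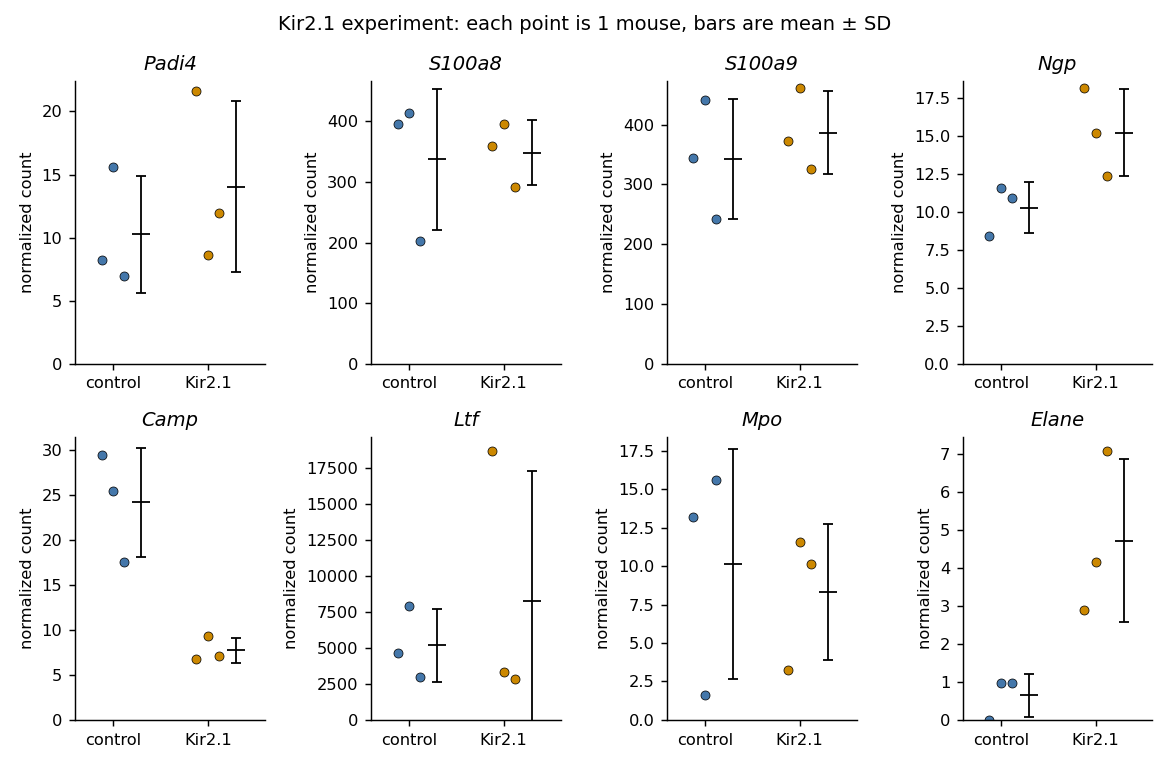
Normalized counts of the 8 genes in the Kir2.1 experiment, with 1 panel per gene, 1 point per mouse and the mean ± SD of 3 mice beside each group. Camp is lower, and Ngp and Elane are higher, in all 3 Kir2.1 mice, while Padi4, S100a8, S100a9, Ltf and Mpo overlap.

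**Figure D4:**
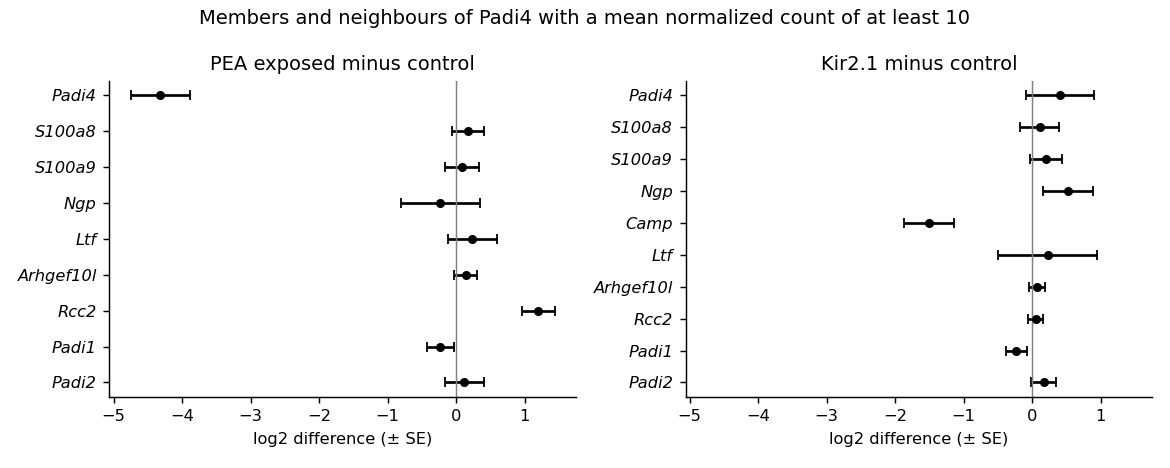
Log2 differences (± SE, after 1 was added) of the members and of the neighbors of Padi4 whose mean normalized count reached 10, with PEA-exposed minus control mice on the left and Kir2.1 minus control mice on the right. Padi4 lies at -4.32 on the left and at 0.40 on the right.

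Levels were compared between genes after division by exon length in kb. In the PEA controls the order of the means was Ltf (3265 normalized counts per kb), S100a9 (240), S100a8 (136), Camp (11.2), Ngp (9.11), Padi4 (6.35) and Mpo (1.07), with Elane at 0. S100a9 and S100a8 overlapped over the 4 mice, as did Camp, Ngp and Padi4. In the Kir2.1 controls the order was Ltf (1505), S100a9 (657), S100a8 (486), Camp (31.9), Ngp (8.42), Mpo (2.96), Padi4 (2.12) and Elane (0.664). There Mpo overlapped both Padi4 and Elane, and S100a9 overlapped S100a8. By this measure Ltf exceeded 99.7% of the genes above 0 in the PEA experiment, and Padi4 exceeded 50.7% of them. In the Kir2.1 experiment Padi4 exceeded 29.1%.

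How the members varied from mouse to mouse within groups was described over all 14 mice, from the deviations of log2 values from the group means. S100a8 and S100a9 had the highest Pearson correlation of any pair (r = 0.74, Spearman correlation 0.59), and S100a9 and Camp had the highest Spearman correlation (0.65, r = 0.70). The ratio of S100a9 to S100a8 stayed between 0.871 and 1.77 in all 14 mice. Over the 21 pairs among the 7 other genes, r ranged from -0.54 to 0.74 with a median of 0.04. Padi4 and the 7 other genes gave r from -0.71, with Mpo, to 0.39, with S100a9 and with Ltf. Low values of Padi4, Mpo and Elane rest on a few reads, and mice of an experiment share their library preparation, so that these values are a description only.

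The genes whose deviations were most like those of Padi4, among 16700 genes, were Pkdcc (r = 0.90), Rimbp3 (0.87) and the predicted genes Gm13237 (0.86), Gm49700 (0.84) and Gm13301 (0.83). Those most like the mean of S100a8, S100a9, Ngp and Ltf were Scamp2 (0.92), Olfr353 (0.89), Snhg18 (0.87), Gm14488 (0.85) and Man1c1 (0.84). The 8 members were left out of this ranking, and only genes with a mean of at least 10 in both experiments entered it. Few neutrophil genes of the lists below could therefore appear, and none was among either set of 5 genes. The highest of so many correlations over 14 mice are high in any case, so nothing is read from these sets.

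Ltf was set beside the genes of nasal glands, which did not all follow it. Bpifb9b, a secreted protein of the BPI fold family, ranged from 376939 to 1013661 in the PEA experiment. The 4 mice with the highest Ltf there, 2 control and 2 exposed mice, were also the 4 with the highest Bpifb9b. The same 4 mice had the 4 lowest values of the mucin gene Muc5b, 806 to 2296 against 2443 to 3503 in the other 4 mice. In the Kir2.1 experiment Bpifb9b ranged from 5957 to 604143. Kir2.1 mouse 1 and control mouse 2 had the 2 highest values of both genes, but the order of the other 4 mice did not match. Control mouse 1 was 3rd of 6 for Ltf and the lowest for Bpifb9b, and Kir2.1 mouse 3 was the lowest for Ltf and 3rd for Bpifb9b. The part of gland tissue in the values of Ltf was not tested.

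**Figure D5:**
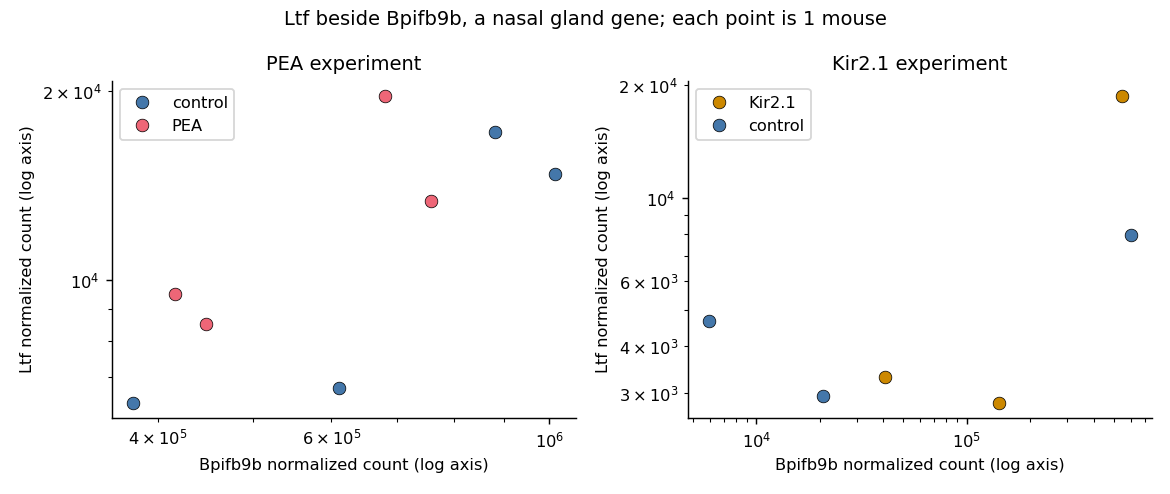
Normalized counts of Ltf against those of Bpifb9b, with logarithmic axes and 1 point per mouse, for the PEA experiment on the left and the Kir2.1 experiment on the right. Kir2.1 mouse 1, with Ltf at 18675, and control mouse 2, with Ltf at 7949, lie at the upper right of their panel, while control mouse 1 is 3rd for Ltf and the lowest for Bpifb9b.

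Further genes of neutrophils were counted in 4 lists of primary granule, secondary granule, tertiary granule and receptor genes, the members left out. Of 50 listed genes, 48 were in the tables. In the PEA experiment 15 of them were tested and none passed the threshold, with 6 higher and 9 lower, a median log2 difference of -0.08 beside -0.02 over all genes, and 4 at an unadjusted p under 0.05, beside 15.0% of all genes tested. In the Kir2.1 experiment 27 were tested and none passed the threshold by limma, with 24 higher and 3 lower and a median of 0.36 beside 0.01. Of these, 1 had an unadjusted p under 0.05, beside 11.1% of all genes tested. Ly6g, Cxcr2, Retnlg and Mmp8 were among the listed genes too low to be tested in the PEA experiment. Which cells of the tissue made the genes that were tested was not examined.

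Among primary granule genes, Lyz2 (lysozyme, shared with macrophages) read 608 to 1497 in PEA controls and 715 to 1026 in exposed mice (log2 difference -0.07, SE 0.24). Serpinb1a, an inhibitor of granule proteases, read 135 to 192 and 125 to 153 (-0.26, SE 0.15). Srgn, the proteoglycan that packs granule proteins, read 62.6 to 106 and 81.7 to 102 (0.08, SE 0.19). In the Kir2.1 experiment Srgn was higher in all 3 Kir2.1 mice (0.55, SE 0.19, limma adjusted p = 0.34). There 7.26% of all genes tested had groups apart in that direction. Prtn3, proteinase 3, read 256 to 395 in the Kir2.1 experiment, where Elane did not exceed 7.10. In the PEA experiment Prtn3 read 1.13 to 2.103 in control mice and 3.91 to 9.97 in exposed mice, all higher. That level was too low to be tested (difference of log2 means 1.45). Of all genes tested there, 5.46% had groups apart in that direction. Prtn3 overlaps the end of Plppr3 on the other strand, and the Kir2.1 libraries were unstranded. The part of Plppr3 reads in the Kir2.1 values of Prtn3 was not tested.

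Among secondary granule genes, Lcn2, a protein that binds bacterial iron carriers, read 78.7 to 138 in PEA controls and 140 to 272 in exposed mice. All 4 exposed mice were higher, with a log2 difference of 0.71 (SE 0.24, limma adjusted p = 0.213), beside 5.46% of all genes tested with groups apart in that direction. Pglyrp1, which binds bacterial cell walls, read 442 to 1596 and 418 to 896 (-0.08, SE 0.38). Anxa1, annexin A1, read 2469 to 4314 and 2388 to 3006 (-0.19, SE 0.18). Cd177, a surface protein of neutrophils, read 133 to 543 and 140 to 403 (-0.37, SE 0.45). Hp, haptoglobin, read 75.0 to 224 and 170 to 250 (0.90, SE 0.31, limma adjusted p = 0.227), and it passed the threshold without PEA control mouse 1 (adjusted p = 0.0444). In the Kir2.1 experiment 9 of the 10 tested genes of the list were higher in Kir2.1 mice, none past the threshold, with adjusted p of 0.462 at the lowest.

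Among genes of tertiary granules and mature neutrophils, Mmp9, gelatinase B, read 351 to 536 in PEA controls and 234 to 302 in exposed mice. All 4 exposed mice were lower, with a log2 difference of -0.63 (SE 0.16, limma adjusted p = 0.138), beside 3.86% of all genes tested with groups apart in that direction. Mmp9 is also made by osteoclasts, and beside it 7 of 9 bone and osteoclast genes were lower in exposed mice, none past the threshold. Their summed level was 1545 to 4217 in controls and 1303 to 1644 in exposed mice. The 4217 was that of control mouse 1, where Ibsp read 1765 against 345 to 493 in the other controls. The highest Mmp9, 536, was in control mouse 4, which had the lowest bone sum of the controls, 1545. The part of bone in the value of Mmp9 was not tested. Stfa1, a stefin, read 0 to 13.1 and 4.15 to 29.1 (2.33, SE 0.98, limma adjusted p = 0.308), and the groups overlapped. The other genes of the list were too low to be tested in the PEA experiment. Of these, Stfa2, Stfa3, Slpi, Retnlg and Mmp25 had negative differences of log2 means, and Stfa2l1, Wfdc21 and Ifitm6 had positive ones.

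Receptors that define neutrophils were few in these libraries. Ly6g, the gene of the common neutrophil surface marker, was listed at 0 in all 6 mice of the Kir2.1 experiment and did not exceed 1.95 in the PEA experiment. Cxcr1 was listed at 0 in all 14 mice. Csf3r, the receptor of granulocyte colony-stimulating factor, read 31.6 to 39.3 in control and 29.3 to 47.7 in Kir2.1 mice (-0.08, SE 0.28). In the PEA experiment it read 5.22 to 14.5 and 8.21 to 17.9 (0.28, SE 0.41). Cxcr2, a chemokine receptor of mature neutrophils, read 14.9 to 23.8 and 21.8 to 32.2 in the Kir2.1 experiment (0.60, SE 0.33, limma adjusted p = 0.58). In the PEA experiment Cxcr2 was too low to be tested (difference of log2 means -0.42). Spi1 and Csf2rb had the highest means of the list in the Kir2.1 experiment, and the groups overlapped for both. Their differences there were 0.22 (SE 0.29, limma adjusted p = 0.857) and 0.06 (SE 0.44, limma adjusted p = 0.98). Csf2rb was at 0.765 in the PEA experiment (SE 0.62, limma adjusted p = 0.603).

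Signals that draw neutrophils were counted as well. Cxcl5, a chemokine, read 87.3 to 123 in PEA controls and 91.3 to 134 in exposed mice (log2 difference -0.02, SE 0.18). In the Kir2.1 experiment it read 66.3 to 98.0 and 104 to 162, higher in all 3 Kir2.1 mice (0.67, SE 0.24, limma adjusted p = 0.357). Il1b, the gene of interleukin 1 beta, also lay higher in all 3 Kir2.1 mice, at 32.0 to 98.1 against 20.6 to 31.8 (0.78, SE 0.46, limma adjusted p = 0.623). Groups lay apart in that direction for 7.26% of all genes tested in that experiment. Ptgs2 overlapped between the groups there, at 24.8 to 45.4 in control and 27.6 to 63.4 in Kir2.1 mice (0.48, SE 0.39, limma adjusted p = 0.741). In the PEA experiment its difference was -0.45 (SE 0.25, limma adjusted p = 0.435). All 4 tested genes of the list had positive differences in Kir2.1 mice. Of those too low to be tested there, Csf3, Cxcl2, Cxcl3 and Saa3 had negative differences, and Il6 and Tnf positive ones. Of the 5 phagocyte oxidase genes, 5 in the PEA experiment and 4 in the Kir2.1 experiment had positive differences, none past the threshold. Ncf4 had the largest of them, 0.95 in the Kir2.1 experiment (SE 0.26, adjusted p = 0.242).

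Markers of other cells were set beside these values. All 10 macrophage and monocyte genes had positive log2 differences in Kir2.1 mice, with a median of 0.26 and none past the threshold, and 5 of 10 were positive in PEA-exposed mice. All 6 tested red cell genes were higher in Kir2.1 mice, with a median of 0.86 and none past the threshold. Groups did not overlap for 3 of these 6 genes, beside 7.26% of all genes tested with groups apart in that direction. The summed level of the red cell list was 11091 to 20053 in the controls and 20327 to 33756 in Kir2.1 mice, so that the highest control lay just below the lowest Kir2.1 mouse. Of 7 OSN genes, 7 were lower in Kir2.1 mice, and 1, Omp, passed the threshold (-0.60, SE 0.08, limma adjusted p = 0.0466), beside 0.353% of all genes tested. The call of Omp was lost whichever mouse was left out, with adjusted p from 0.0704 to 0.175. Of the red cell genes, Hba-a1 passed the threshold without control mouse 3 (adjusted p = 0.0369). The part of blood and of OSN content in the members' values of the Kir2.1 experiment was not tested. Of the 11 red cell genes listed, 5 were tested in the PEA experiment, with 4 positive and 1 negative and a median of 0.18. No tested gene of the platelet, squamous epithelium, gland or sustentacular cell lists passed the threshold in either experiment. Of the 9 mast cell, basophil and eosinophil genes and the 9 lymphocyte genes, 1 and 3 were tested in the Kir2.1 experiment and none passed, and 0 were abundant enough to be tested in the PEA experiment.

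The mice differed in a tissue that the groups do not define. The mean log2 level of vomeronasal receptor genes was 6.06 in control mouse 1 of the Kir2.1 experiment and 2.35 to 2.45 in the other 5 mice. In the PEA experiment it was above 3 in 3 of 4 control mice and in 1 of 4 exposed mice. With that level in the fit, the log2 difference of Padi4 was -4.24 (SE 0.44) in the PEA experiment, and that of Camp was -1.34 (SE 0.39) in the Kir2.1 experiment (limma adjusted p = 0.397). Padi4 was chosen by the PEA contrast, so its value from this fit is a description. The part of vomeronasal tissue in the values of Padi4 was not tested.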

How the data were processed

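RNA of the olfactory epithelium was sequenced in 14 mice, 1 library per mouse. The authors, per the study's methods, ran Salmon 1.3.0 on the GRCm38 transcripts of Ensembl 100, brought the estimates to genes (tximport) and scaled each experiment on its own (DESeq2 1.30.0). What they deposited is thus a normalized signal and not whole reads, and no count model was run on it. The methods give a reverse-stranded Salmon setting for all libraries, while they describe the Kir2.1 libraries as unstranded.

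A gene was tested in an experiment if its mean there reached 10. The log2 of the value plus 1 was compared between groups by limma 3.58.1 (R 4.3.3; moderated with a mean-variance trend), each experiment alone, with Benjamini-Hochberg adjustment over all genes tested and a threshold of 0.05. Single genes of the Kir2.1 experiment were also tested by an exact two-sided permutation test. The procedure was also run on simulated data, with the same setting of spread for every gene and changes only in genes well above the minimum mean. That run does not cover members of low level, such as Padi4, Ngp and Camp. Approximate depth was the sum of a library's values divided by the worth of 1 read, the step at which its low values cluster. The interval on reads, given for Elane in the Kir2.1 experiment, was exact (Clopper-Pearson) and covers counting error only. GENCODE vM21 (GRCm38) gave positions and exon lengths for 95.9% of the 51211 symbols, and promoter windows came from RefSeq, in which all 8 genes were matched.

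The 8 genes, the gene lists and the tests were chosen with earlier results of these data known. Named besides the members were genes of highest mean in each list, genes past the threshold, the Padi family, the 3 protein-coding neighbors of Padi4 on each side and the 5 genes most like Padi4 or most like the mean of the granule genes. Of the listed genes, BC100530, BC117090 and Ahsp had no row under those symbols. The replicates are separate mice, and no label ties them to litters or batches. The methods of the study name littermates of the Kir2.1 pups, but not which mice shared a litter. The main tests took no account of litters. Groups came from the sample labels. The alternatives tried were pseudocounts of 0.5 and 5, no filter, a minimum mean of 50, no trend, robust fitting, quantile normalization, median centring, sample weights, a replicate block, each mouse left out, the vomeronasal receptor level or Xist as a covariate, and a threshold of 0.1. The other steps used pandas 2.3.3, numpy 2.4.6, matplotlib 3.10.9 and scipy 1.17.1 under Python 3.11.15.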

Additional observations from a re-analysis of the deposited data

Results flagged for a closer look

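Within a group of 4 mice, 3 values stood apart from the other 3 mice by Dixon's test on log2 values, among 15 groups and genes tested in the PEA experiment. Chance gives about 1 such value in 20 groups. Ngp read 5.30 in PEA control mouse 3, below the other control mice. Camp read 4.46 in PEA exposed mouse 1, above the other exposed mice. Elane read 0.960 in PEA exposed mouse 2, about 1 read, where the other exposed mice were at 0, and with 3 values at 0 any value above 0 stands apart by this test, so that it says nothing there.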

How the results depend on the processing

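No member passed the threshold in the Kir2.1 experiment under any of the alternatives (0 in all 19). Over the 17 alternatives that give a value, the log2 difference of Camp lay between -1.71 and -1.18 and that of Padi4 between 0.06 and 0.72. A minimum mean of 50 left neither gene tested. With single mice left out, the Kir2.1 differences ranged from -0.65 to 0.71 for Ltf, from -0.23 to 0.29 for S100a8 and from -0.028 to 0.41 for S100a9. In the PEA experiment the difference of Padi4 was -4.90 with a pseudocount of 0.5 and -2.66 with one of 5, as adding a larger value shrinks differences of low genes, and -4.52 to -4.10 with single mice left out. The other PEA differences then ranged from -0.52 to 0.28 for Ngp (0.28 without exposed mouse 1), from -0.03 to 0.30 for S100a8 and -0.14 to 0.21 for S100a9 (both lowest without control mouse 3), and from 0.005 to 0.49 for Ltf. Ngp was at -0.62 with the vomeronasal level and 0.02 with sample weights. With a minimum mean of 50, Padi4 was not tested, so that 0 members were past the threshold there. The count of all genes past the threshold in the Kir2.1 experiment was 70, and it was 44 with Xist, 22 with the vomeronasal level, 20 without a trend, 23 to 44 with single mice left out and 171 at a threshold of 0.1. In the PEA experiment it was 31, and it was 52 without a filter, 117 with sample weights, 20 with the vomeronasal level, 19 to 43 with single mice left out and 128 at a threshold of 0.1. The cause of these shifts was not tested. With the replicate block, which pairs mice by number, the counts were 9 and 23, and the members called were 0 and 1. Deviations of same-numbered mice correlated at -0.06 to 0.16 in the Kir2.1 and -0.05 to 0.13 in the PEA experiment. With so few mice per group, these values cannot show whether mice were paired. The depth of the PEA libraries limits values of Mpo, Elane and Camp to a few reads.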
